A study of Mus musculus with 18 samples.

Results

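The 6 libraries described here are the MEK inhibitor experiment in Vhl-edited oligodendrocyte progenitor cells (OPCs), chosen by their labels: 3 libraries of Vhl-edited cells that received AZD8330 and 3 of Vhl-edited cells that received DMSO, 6 of the 18 libraries of the series. The cells are mouse OPCs derived from epiblast stem cells, a pluripotent cell type of the early embryo, and were grown with Fgf2 and Pdgfa, both ligands of receptor tyrosine kinases that signal through RAS and ERK. All carried a CRISPR edit of Vhl. After a day of growth the medium was replaced with one holding DMSO, the solvent, or 300 nM AZD8330, and RNA was taken 14 h later. The same 2 media were given to OPCs carrying a CRISPR control, 3 libraries each, and those 6 libraries are used below only to show where the response of Vhl-edited cells differed. Whether libraries A to C of a group were separate cultures is not in the labels, and p-values therefore reflect the spread among these libraries alone, which may be technical. They do not say either whether the edited cells were 1 clone or a pool.

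AZD8330 inhibits MEK1 and MEK2, the kinases that phosphorylate and activate ERK downstream of RAS and RAF. Active ERK enters the nucleus, switches on immediate early genes and ETS factors, and raises its own inhibitors, the DUSP phosphatases and the Sprouty proteins, so that the level of these inhibitors follows ERK activity. In OPCs this pathway carries the signal of PDGF and FGF that keeps the cells dividing as progenitors. VHL marks the alpha subunits of the hypoxia-inducible factors (HIF) for degradation when oxygen is present, and cells without it hold HIF target genes high in normal oxygen.

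Library totals in the 12 libraries of the drug experiment lay between 12391077 and 16349676 estimated counts, and 13460 of 54279 genes had a mean of at least 1 CPM (a count scaled to a common library total) and were tested. In the 6 Vhl-edited libraries the share of counts in mitochondrially encoded genes was 3.18% to 3.29% with DMSO and 2.56% to 2.78% with AZD8330. Some genes that most cells express are listed near 0: Mcl1 is at 0 in all 12 libraries and Pgk1, a glycolytic enzyme, held 1.92, 0.615 and 3.48 CPM in Vhl-edited cells with DMSO, both chosen after their values were seen, so a low value here is not evidence that a gene is silent. The sources used here do not say whether counting kept strand, and counts of genes with overlapping exons are uncertain where that is so: 54.6% of exon bases in Sox4, 52.6% in Jund, 31.8% in Hes5, 23.4% in Ccnd1 and 22.3% in Bnip3 also belong to another gene model. Likewise 46.2% of 31-base stretches of Loxl2, 39.1% of Mif, 30.3% of Etv5 and 27.2% of Gapdh occur in other genes. Vhl itself held 90, 93.2 and 94.1 CPM with DMSO and 104, 105 and 92 CPM with AZD8330, for libraries A to C in order, as in all triplets of values below. Its transcript is thus still counted in the edited cells (control cells with DMSO held 106 ± 3.4 CPM, mean ± SD, n = 3), and the table does not show what the edit did to the protein. Markers of OPCs were present in every library at different levels. Sox10 held 20.3, 17.4 and 15.5 CPM with DMSO, Pdgfra 63.4, 63.2 and 65.7 CPM. Olig1, a transcription factor of the lineage, stood at 3251, 3373 and 3249 CPM with DMSO, and the summed level of 10 OPC markers was 10150 to 10330 CPM with DMSO and 10020 to 10160 CPM with AZD8330. Most of that sum is Ptprz1, Olig1 and Olig2.

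In Vhl-edited cells AZD8330 lowered Dusp6 and most tested Sprouty and Spred genes, which feed back on ERK, and every tested S phase and G2 and M phase gene. More than the share found over all genes rose among myelin, astrocyte and receptor tyrosine kinase genes. Of the 13460 genes tested, 6924 (51.4%) changed at an adjusted p under 0.05 (edgeR's quasi-likelihood test, Benjamini-Hochberg), 3479 (25.8%) upward and 3445 (25.6%) downward. At least 2-fold changes were fewer, with 983 genes (7.3%) higher and 837 (6.22%) lower. The median log2 change over all tested genes was 0.03. With so many of the tested genes called, a call on its own sets a gene little apart, and sizes or levels are given beside each. For every gene named below as having risen or fallen, the DMSO and AZD8330 values of Vhl-edited cells did not overlap, as was so for 30% of all tested genes in the upward and 28.4% in the downward direction. Gene lists are given by how many tested members rose or fell and by their median log2 change, to be read against these shares and the median of 0.03. The same drug changed 8183 genes (60.8%) in control cells, 3912 (29.1%) upward and 4271 (31.7%) downward.

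**Figure D1:**
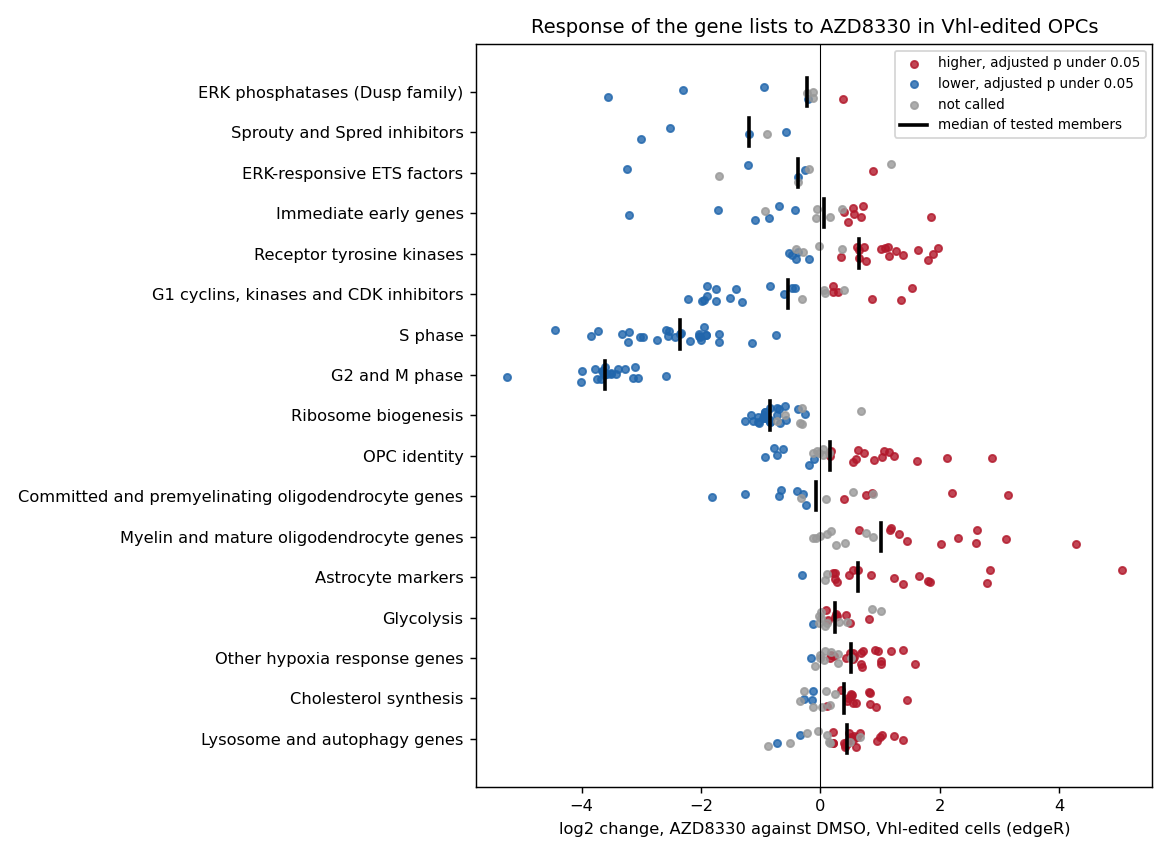
Log2 change with AZD8330 in Vhl-edited cells (x axis, edgeR) for the tested members of 17 gene lists (y axis), with 1 point per gene, coloured by direction where the adjusted p is under 0.05, and a bar at the median. Every tested S phase and G2 and M phase gene lies left of 0, with medians of -2.35 and -3.61, whereas myelin genes have a median of 1.02.

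The largest rise among genes reaching 10 CPM whose groups did not overlap was that of Itih5l-ps, annotated as a pseudogene, from 0.0798, 0.273 and 0.151 CPM to 19.4, 16.3 and 14.3 CPM. Next came Klf2, a Kruppel-like transcription factor (chr8:72319033-72321656, GRCm38), which held 1.6, 2.53 and 2.34 CPM with DMSO and 90, 81.3 and 90.6 CPM with AZD8330. All 3 AZD8330 libraries of both genes thus lay far above all DMSO libraries, and the log2 change of Klf2 was 5.32 ± 0.16 (SE, adjusted p = 2.55e-11). Gfap, the intermediate filament of astrocytes, rose from 2.63, 2.6 and 3.4 CPM to 109, 88.8 and 88.6 CPM. Capn1 and Padi2, a calcium-dependent protease and a peptidyl arginine deiminase, had log2 changes of 5.26 and 4.49. Those of the actin-associated genes Synpo2 and Plec were 4.96 and 4.38. Serpinb1a, Lipg, Ahnak, Adamtsl4 and Anxa1 completed the 12 largest rises, with log2 changes between 4.5 and 4.94.

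Of the 12 largest falls, 8 belong to replication and mitosis. E2f8, an E2F family repressor of the cell cycle, held 26.8, 21.4 and 23.8 CPM with DMSO and 0, 0.852 and 0 CPM with AZD8330. Cdc6, which loads the replicative helicase, fell from 32.6, 23.5 and 16.1 CPM to 2, 0 and 1.31 CPM, and Tk1, thymidine kinase, from 100.2, 90.9 and 76.5 CPM to 6.64, 5.9 and 5.55 CPM. For each of these 3 genes every AZD8330 library lay below every DMSO library. The DNA helicase Pif1, the mitotic genes Birc5, Ska1 and Cdca2 and the cohesin acetyltransferase Esco2 had log2 changes between -4.72 and -3.79. The remaining falls were those of Tmem173, which encodes STING, the adaptor of cytosolic DNA sensing, at 32.4, 33.2 and 31.2 CPM against 1.04, 1.31 and 1.17 CPM, of Igfbp4 (log2 -4.08), of Gcnt4 (log2 -4.05) and of Rapgef4, an exchange factor for RAP, at log2 -4.02.

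The first question was how far ERK output changed, for which the feedback inhibitors are direct read-outs. Dusp6, the cytoplasmic phosphatase that inactivates ERK (chr10:99263231-99267489), held 366, 392 and 396 CPM in DMSO libraries A, B and C. In the AZD8330 libraries, in the same order, it held 33.3, 30.5 and 34.7 CPM. Spry4, a Sprouty inhibitor of RAS activation, held 176, 182 and 175 CPM and 20.5, 21.2 and 24.4 CPM, and Etv4, an ETS transcription factor induced by FGF signalling, 243, 237 and 224 CPM and 23.6, 24.3 and 26.4 CPM. The groups were far apart for all 3, with log2 changes of -3.55 ± 0.05 (adjusted p = 5.25e-14), -3.01 ± 0.08 (adjusted p = 8.46e-12) and -3.24 ± 0.07 (adjusted p = 2.17e-12; edgeR, SE over 3 libraries a group).

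Within the DUSP phosphatases 8 of 11 members were tested, of which 4 fell and 1 rose (median log2 -0.22), against 25.6% and 25.8% of all tested genes. Besides Dusp6, Dusp4, a nuclear ERK phosphatase, fell with a log2 change of -2.3, Dusp7 with -0.95 and Dusp16 with -0.21. Dusp8, which acts on JNK and p38, rose with a log2 change of 0.38. Dusp1 held 20.7, 16.3 and 19.5 CPM and 14, 18.7 and 15.5 CPM, so its groups overlapped (adjusted p = 0.258). Of the Sprouty and Spred genes 4 of 5 tested fell (median log2 -1.2). Spry1 went from 236, 234 and 229 CPM to 39.3, 40.4 and 41.7 CPM and Spry2 from 256, 246 and 243 CPM to 106, 108 and 111 CPM, again without overlap. Spred3 fell with a log2 change of -0.58, and Spred1, below 3 CPM in every library of Vhl-edited cells, was not called.

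Among the ETS factors 4 of 9 tested fell and 1 rose (median log2 -0.38). Elk3, a ternary complex factor that ERK phosphorylates, fell from 15.1, 15.5 and 12.1 CPM to 5.95, 6.43 and 6.13 CPM. Etv1, of the same subfamily as Etv4, went the other way, from 96.8, 108 and 114 CPM to 182, 209 and 198 CPM, a log2 change of 0.88 ± 0.08 (adjusted p = 9e-07). Etv5 held 6.94, 0 and 4.39 CPM and 0, 1.57 and 1.9 CPM, low and variable values that were not called (adjusted p = 0.235). For Etv5 the call depended on the fit. It was called lower without the filter on low counts (log2 -1.7, adjusted p = 0.0493) and without DMSO library B (log2 -2.29, adjusted p = 0.044).

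The immediate early genes divided, with 6 of 18 lower and 7 higher (median log2 0.06). Egr1, a zinc finger factor switched on within minutes of ERK activation, fell from 50.6, 52.4 and 49.9 CPM to 5.95, 4.26 and 6.35 CPM. Klf10 fell from 192, 198 and 198 CPM to 58.6, 63.5 and 56.2 CPM, and Jun from 317, 326 and 312 CPM to 227, 245 and 238 CPM. Each of these 3 genes was lower in every AZD8330 library than in any DMSO library, but the size ranged from log2 -3.21 for Egr1 to -0.43 for Jun. Other AP-1 genes were higher. Jund stood at 227, 239 and 221 CPM and then 376, 357 and 365 CPM. Fosb rose with a log2 change of 1.86 ± 0.23 and Fos with 0.56 ± 0.14, both at low levels (Fos at 8.86, 11 and 11 CPM and then 13.8, 15.9 and 15.9 CPM). Srf, the partner of the ternary complex factors, was not called at 44.6, 46.3 and 45 CPM and 47.9, 42.2 and 40.9 CPM.

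Of the other genes known to follow ERK, 8 of 22 tested fell and 4 rose (median log2 -0.21). Trib1, a pseudokinase, fell from 126, 136 and 131 CPM to 34.8, 41.4 and 32 CPM and Plk2, a polo-like kinase, from 176, 186 and 182 CPM to 72.5, 70.9 and 61.1 CPM. Plat, tissue plasminogen activator, rose from 317, 325 and 340.5 CPM to 785, 795 and 770.1 CPM. No library of 1 group reached the range of the other for these 3 genes. Trib2, Phlda3 and Slc20a1 fell with log2 changes of -0.78, -0.9 and -0.8.

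**Figure D2:**
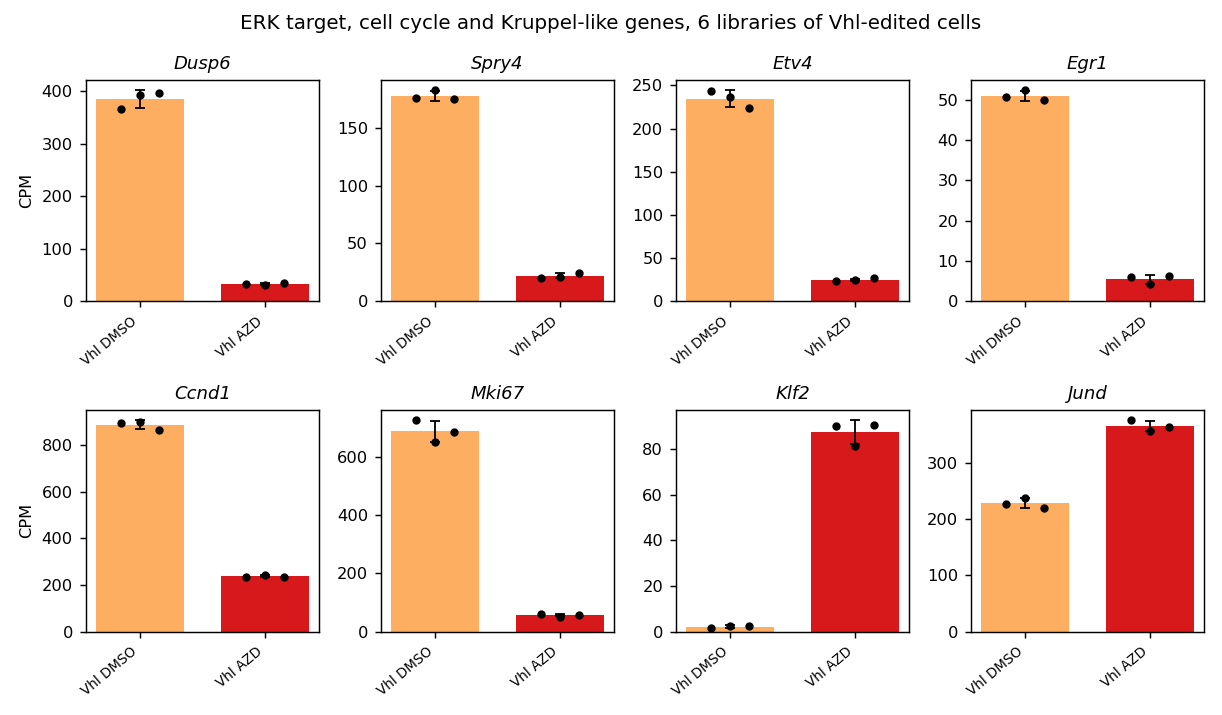
CPM (y axes, linear from 0, each with its own scale) of 8 genes in the 6 libraries of Vhl-edited cells. Bars are means, whiskers SD over 3 libraries, points the libraries A, B and C. Dusp6, Spry4, Etv4, Egr1, Ccnd1 and Mki67 are lower and Klf2 and Jund higher in all 3 AZD8330 libraries.

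Sequences upstream of gene starts are shown for 5 of the genes described here. These are an ERK phosphatase and another ERK target that fell, and a pair of S phase genes. Also shown is a sterol gene whose response differed between the cell types. Each gene was picked together with a motif to mark. Plk2, Uhrf1, Rrm1 and Hmgcs1 are among the few members of their lists whose window holds that motif, as counted below. The marked sites are therefore not typical of these lists. The sequences are the 250 bases before the start in RefSeq (GRCm38.p6), 5′ to 3′ on the gene's strand. Capitals mark a motif: the CRE TGACGTCA in Plk2, the E2F site GGCGGGAA in Uhrf1 and Rrm1, and the sterol regulatory element TCACNCCAC in Hmgcs1. The E2F sites lie on the opposite strand and are printed as the reverse complement. The Dusp6 window holds no match to the ETS motif and has no capitals.
Dusp6, chr10:99262981-99263230, plus strand: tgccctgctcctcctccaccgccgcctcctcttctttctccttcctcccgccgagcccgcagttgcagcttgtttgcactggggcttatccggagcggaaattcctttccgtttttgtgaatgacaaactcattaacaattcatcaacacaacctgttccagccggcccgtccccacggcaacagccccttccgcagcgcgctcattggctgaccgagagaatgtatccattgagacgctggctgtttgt
Plk2, chr13:110394794-110395043, plus strand: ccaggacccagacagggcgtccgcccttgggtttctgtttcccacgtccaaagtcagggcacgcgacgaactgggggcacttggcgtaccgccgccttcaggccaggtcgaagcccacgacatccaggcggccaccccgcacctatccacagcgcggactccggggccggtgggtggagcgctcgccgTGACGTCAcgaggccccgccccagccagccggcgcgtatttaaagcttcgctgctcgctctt
Uhrf1, chr17:56303087-56303336, plus strand: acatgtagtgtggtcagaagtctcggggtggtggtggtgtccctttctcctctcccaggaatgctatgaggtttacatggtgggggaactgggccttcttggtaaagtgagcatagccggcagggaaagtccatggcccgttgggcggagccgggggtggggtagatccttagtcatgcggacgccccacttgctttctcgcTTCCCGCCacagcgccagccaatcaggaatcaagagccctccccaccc
Rrm1, chr7:102441445-102441694, plus strand: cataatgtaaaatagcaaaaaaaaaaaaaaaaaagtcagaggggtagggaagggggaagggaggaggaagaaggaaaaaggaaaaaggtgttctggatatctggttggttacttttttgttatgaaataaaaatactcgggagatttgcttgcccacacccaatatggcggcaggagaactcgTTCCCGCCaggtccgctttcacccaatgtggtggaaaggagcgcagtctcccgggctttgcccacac
Hmgcs1, chr13:119690101-119690350, plus strand: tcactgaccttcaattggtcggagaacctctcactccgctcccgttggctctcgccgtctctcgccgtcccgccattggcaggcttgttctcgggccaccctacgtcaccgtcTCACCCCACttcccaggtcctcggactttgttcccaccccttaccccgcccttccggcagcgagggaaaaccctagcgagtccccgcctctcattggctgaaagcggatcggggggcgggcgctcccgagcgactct

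The windows were searched on both strands, over 27025 RefSeq genes, with the first listed start where a gene has several, as Uhrf1 does. The ETS motif CCGGAAG is in 7.05% of all windows (14.1% among genes tested here) and in the windows of 0 of 9 DUSP genes, 0 of 5 Sprouty and Spred genes and 8 of 26 ribosome biogenesis genes. The E2F motif is in 1.88% of windows (3.7% among tested genes) and in 4 of 23 S phase genes, Rrm1, Prim1, Chaf1a and Uhrf1. TGACGTCA is in 1.62% of windows (2.91%), and among other ERK targets in 2 of 18, Plk2 and Epha2. TCACNCCAC, added after the expression values were seen, is in 1.04% (0.925%) and in 1 of 17 sterol genes. AP-1 sites (TGANTCA) are in 6.87% of windows (3.74% among tested genes) and in 0 of the DUSP windows. ACGTG, the HIF core, is in 16.6% (22% among tested genes) and in 14 of 28 windows of hypoxia response genes outside glycolysis. CACGTG, which contains it, is in 6.05% (8.29%). The CArG box of SRF is in 1.4% (1.13%). A match describes letters in a window of this length and shows no binding.

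Upstream of ERK, the transcripts of the drug's own targets moved little. Map2k1, which encodes MEK1, held 341, 362 and 337 CPM with DMSO and 322, 337 and 327 CPM with AZD8330, ranges that met at 337 CPM, without a call (log2 -0.08 ± 0.03, adjusted p = 0.0715). Map2k2 (MEK2) fell with a log2 change of -0.2 ± 0.05. Mapk3 (ERK1) is listed at 1.36, 7.1 and 1.66 CPM and 1.66, 0.918 and 2.33 CPM, too low for a comparison. Of 31 tested pathway components 9 rose, a share near that of all tested genes, and 4 fell (median log2 0.02). Rasa3, a GTPase activator that switches RAS off, fell from 491, 503 and 511 CPM to 243, 258 and 258 CPM. The RAS-related GTPase Mras rose from 7.02, 10.7 and 8.55 CPM to 21.6, 29.9 and 26.5 CPM.

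Receptor tyrosine kinases, which feed the pathway, were mostly higher: 16 of 25 tested rose and 5 fell, with a median log2 change of 0.65. Tyro3, a receptor for GAS6 and protein S, rose from 70.4, 69.1 and 64.1 CPM to 266, 264 and 266 CPM, and Erbb4, a neuregulin receptor, from 83.7, 88.5 and 92.6 CPM to 263, 273 and 289 CPM. Pdgfra, the PDGF receptor that marks OPCs, stood at 63.4, 63.2 and 65.7 CPM and then 134, 130.3 and 162 CPM. The DMSO and AZD8330 ranges did not meet for any of them. Fgfr3, Ntrk2 (the BDNF receptor), Kit and Epha5 rose with log2 changes of 1.38, 1.27, 1.09 and 1.01, and Mertk was not called at 23.7, 25.1 and 27.5 CPM and 25.8, 25.8 and 23.9 CPM. Growth factor ligands were sparse, with 11 of 26 tested. Of these 3 fell, among them Vegfb (log2 -0.38) and Fgf1 (log2 -1.36), and 1, Vegfa, rose.

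The proliferation programme fell as a whole. Ccnd1, cyclin D1, the G1 cyclin that ERK induces, held 895, 900.2 and 866 CPM with DMSO and 235, 243 and 234 CPM with AZD8330. Mki67, the proliferation antigen Ki-67, fell from 727, 653 and 688 CPM to 59.8, 51.5 and 57.9 CPM, and Top2a, the topoisomerase of dividing cells, from 746, 659 and 629.9 CPM to 70.4, 58.6 and 61.1 CPM. No AZD8330 library came near the DMSO range for these genes, and the log2 changes were -1.9 ± 0.03 (adjusted p = 1.69e-13), -3.61 ± 0.08 (adjusted p = 2.56e-12) and -3.42 ± 0.09 (adjusted p = 6.5e-12). All 27 tested of 28 S phase genes fell, with a median log2 of -2.35 and a range from -4.45 to -0.74. All 21 tested of 24 G2 and M phase genes fell, with a median of -3.61 and a range from -5.25 to -2.58. Among them were the helicase subunits Mcm5 (312, 291 and 262 CPM, then 29, 30.6 and 33.1 CPM) and Mcm2 (299, 304 and 258 CPM, then 48.6, 47.5 and 52.1 CPM). Rrm1, of ribonucleotide reductase, whose upstream sequence is shown above, fell from 393, 366 and 339.5 CPM to 95.3, 90.5 and 85.3 CPM. Cyclin A2 (Ccna2), the kinetochore protein Cenpf, the spindle factor Tpx2 and the kinase Aurkb had log2 changes of -3.51, -3.65, -3.11 and -3.78. The libraries are of bulk RNA, so fewer cells of a kind and less RNA per cell cannot be told apart here or in the groups that follow.

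G1 regulators were mixed, with 14 of 24 tested lower and 6 higher (median log2 -0.54). Cdkn2c, a CDK4 and CDK6 inhibitor, fell from 131, 123 and 110.3 CPM to 38.7, 36.3 and 34.1 CPM, as did the phosphatase Cdc25a, with a log2 change of -1.42. Rb1, the retinoblastoma protein that holds cells in G1, rose from 108, 107 and 108 CPM to 201, 191 and 193 CPM. Cdkn1a (p21) fell, from 303, 299.6 and 289.7 CPM to 229, 219.5 and 216 CPM, whereas Cdkn1b (p27) rose, from 127, 139 and 133 CPM to 149, 154 and 161 CPM. The groups did not overlap for either CDK inhibitor, although the changes were small (log2 -0.42 ± 0.05 and 0.22 ± 0.05). The kinases Cdk4 and Cdk6, which cyclin D1 activates, were not called (adjusted p = 0.134 and 0.316). For Cdk4 the call depended on the fit: a fit to the 6 libraries alone gave log2 -0.3 at an adjusted p of 0.025.

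MYC drives ribosome production, and both were lower with AZD8330. Myc held 261, 256 and 245 CPM with DMSO and 157, 157 and 160.0 CPM with AZD8330, a fall of log2 -0.68 ± 0.03 (adjusted p = 3.39e-09) without overlap. Mxd1 and Mxd4, which compete with MYC for their partner MAX, rose from 24.6, 26.2 and 24.4 CPM to 53.2, 59.8 and 56.7 CPM and from 22.5, 19.6 and 23.4 CPM to 42.7, 43.8 and 43.5 CPM, and Mnt rose with a log2 change of 0.37. Mxd3, another member of that family, fell with a log2 change of -3.21, and Mycl rose with a log2 change of 1.43, so that 5 of 11 tested genes of MYC and its partners rose and 2 fell (median log2 0.37). Of 31 ribosome biogenesis genes tested 25 fell and 0 rose, with a median log2 of -0.85. The nucleolar helicase Ddx21 went from 323, 315 and 309.8 CPM to 152, 156 and 157 CPM. Nop58, Nolc1, Mybbp1a and fibrillarin (Fbl), which act in the nucleolus, fell with log2 changes of -1.26, -0.94, -0.95 and -0.92.

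OPCs mature through a committed stage marked by Gpr17 to myelin-forming cells. AZD8330 raised Gpr17 and part of the myelin genes, while Olig1 and Olig2, which specify the lineage, fell slightly. Gpr17, a receptor of committed precursors, held 58.5, 63.3 and 57 CPM with DMSO and 543, 518 and 520.2 CPM with AZD8330, or 8.83 times the DMSO level (log2 3.14 ± 0.04, adjusted p = 3.24e-14). Cnp, an early myelin enzyme, rose from 155, 166 and 165 CPM to 374, 371 and 345 CPM, and Gjc3, a gap junction gene, from 16.6, 20.2 and 16.2 CPM to 116, 106 and 106 CPM. The 3 genes differ in level, but none had overlapping groups. Cryab, a small heat shock protein on the same list, rose from 5.35, 5.67 and 7.49 CPM to 133, 118 and 112 CPM. In all 11 of 20 tested myelin and mature genes rose and 0 fell. The transcription factor Nkx6-2 and Gsn rose with log2 changes of 2.61 and 1.19. Late myelin genes stayed low: Mbp, myelin basic protein, held 2, 3.14 and 6.73 CPM and 4.42, 3.48 and 5.55 CPM, and Myrf, the factor that drives myelin genes, 0.239, 1.09 and 1.51 CPM and 0.968, 1.44 and 2.48 CPM. Neither was called (adjusted p = 0.732 and 0.313), and the ranges overlapped for both. Mog, a marker of myelinating cells, is listed at 0 in all 3 AZD8330 libraries.

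The committed list did not move 1 way: 5 of 16 tested rose and 7 fell (median log2 -0.07). Lims2 rose from 7.74, 6.35 and 4.01 CPM to 26.5, 27.4 and 29 CPM and Sirt2, a deacetylase found in myelin, from 106, 116 and 117 CPM to 195, 197 and 181 CPM. Gpr17 lies within the span of Lims2 on the other strand, and 6.14% of Lims2 exon bases also belong to another gene model. Counts of Lims2 are therefore uncertain. Fyn, a kinase of early differentiation, fell from 1014, 1078 and 1067 CPM to 813, 812 and 789.7 CPM, Chn2 with a log2 change of -1.26 and Tnfaip6 with -1.82. Progenitor genes were divided too, with 14 of 26 higher and 6 lower (median log2 0.17). Vcan and Tnr, extracellular matrix genes of OPCs, rose from 457, 468 and 479.9 CPM to 927, 944 and 992 CPM and from 76.5, 90.6 and 90.5 CPM to 262, 257 and 277 CPM. Sulf2, which trims heparan sulphate, fell from 871, 875 and 877 CPM to 449.7, 461 and 461 CPM, and Cspg5 fell with a log2 change of -0.63. Cspg4, which encodes NG2, was not called at 304, 309 and 303 CPM and 289, 295 and 300.4 CPM.

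Among lineage transcription factors 15 of 26 tested rose and 6 fell (median log2 0.5). Olig2, which specifies the lineage, held 1494, 1515 and 1487 CPM and 1330, 1277 and 1329 CPM, a small fall of log2 -0.19 ± 0.03. Olig1 fell with a log2 change of -0.11 (adjusted p = 0.0176), and without DMSO library B its adjusted p was 0.0699. Sox10, needed for myelin genes, rose from 20.3, 17.4 and 15.5 CPM to 31, 34.8 and 27.3 CPM, while Nkx2-2 was not called. Larger rises were those of Id4 (6.71, 7.04 and 6.35 CPM to 51.6, 50.1 and 46.1 CPM) and Hes5 (47.8, 46 and 50 CPM to 175, 167 and 174 CPM), both known as inhibitors of oligodendrocyte differentiation. Sox4, Sox3, Sox9 and Nfix rose with log2 changes of 1.01, 0.87, 0.63 and 0.99.

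**Figure D3:**
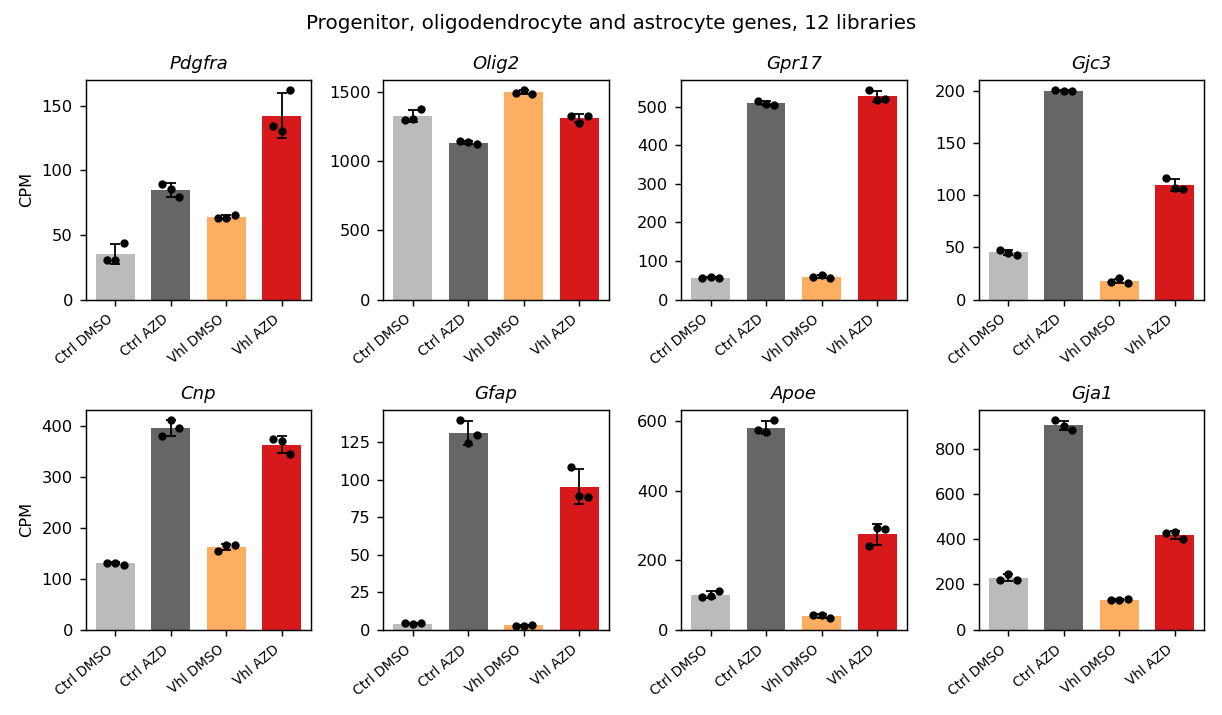
CPM (y axes, linear from 0, each with its own scale) of 8 lineage genes in 12 libraries: control (Ctrl) and Vhl-edited (Vhl) cells with DMSO or AZD8330 (AZD). Bars are means, whiskers SD over 3 libraries, points libraries. Gpr17 reaches similar levels in both AZD8330 groups, 509.5 and 527 CPM, whereas Gjc3, Apoe and Gja1 lie lower in the Vhl-edited one; Olig2 changes little.

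Astrocyte genes mostly rose: 16 of 19 tested rose and 1 fell (median log2 0.63). Apoe, an apolipoprotein, rose from 43.1, 42.2 and 33.8 CPM to 240.0, 293 and 289 CPM, Ndrg2 from 469, 470.4 and 460.4 CPM to 1605, 1715 and 1597 CPM, and S100b, a calcium-binding protein, from 43.9, 41.3 and 41.1 CPM to 152, 154 and 147 CPM. Each of these was higher in all AZD8330 libraries than in any DMSO library. Gja1, connexin 43, and Hepacam rose with log2 changes of 1.65 and 0.85, while the glutamate transporter Slc1a3 was not called, with overlapping ranges of 29.8, 18 and 21 CPM and 21.4, 20.6 and 32.5 CPM. Several of these genes are also made by oligodendrocyte lineage cells. The summed level of 6 astrocyte markers was 764 to 804 CPM with DMSO and 1406 to 1437 CPM with AZD8330, and that of 8 oligodendrocyte markers 164 to 182 CPM and 374 to 406 CPM. Most of the astrocyte sum is Slc1a2 and Gja1. Nearly all of the oligodendrocyte sum is Cnp, at means of 162.1 CPM with DMSO and 363.2 CPM with AZD8330. Aqp4 and Aldh1l1, which define astrocytes, rose from 3.27, 4.64 and 4.92 CPM to 34.6, 29.6 and 28.2 CPM (log2 2.84 ± 0.14, adjusted p = 2.38e-09) and from 6.54, 2.25 and 3.18 CPM to 7.67, 12.3 and 8.17 CPM (log2 1.24 ± 0.35, adjusted p = 0.0104), the latter call lost without AZD8330 library B (adjusted p = 0.0608).

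Neuron markers rose in 7 of 16 tested cases and fell in 3 (median log2 0.16). Tubb3, neuronal tubulin, rose from 28.5, 30 and 25.1 CPM to 83, 81 and 82.5 CPM and Map2 from 1114, 1199 and 1241 CPM to 1916, 1935 and 1973 CPM, while Gap43 fell with a log2 change of -0.56. The sum of 8 neuron markers, 286 to 306 CPM and 423 to 448 CPM, is mostly Dcx, and Syt1 and Snap25, of synaptic vesicles, averaged 0.914 and 1.47 CPM with AZD8330. Of 10 tested neural progenitor markers 6 rose and 0 fell. Vim, an intermediate filament of progenitors and glia, rose from 1478, 1457 and 1482 CPM to 2919, 2769 and 2732 CPM. Of 12 pluripotency genes 4 were tested, of which 2 rose and 2 fell. Pou5f1 and Zfp42, which define that state, are listed at 0 in all 12 libraries. Esrrb fell from 17.6, 14.2 and 16.2 CPM to 2.56, 3.54 and 4.16 CPM, Nanog rose from 0.479, 0.273 and 0.302 CPM to 1.38, 0.852 and 1.02 CPM, a call lost without DMSO library B (adjusted p = 0.0545) or AZD8330 library A (0.0614). The sum over the list went from 20.02 to 25.38 CPM with DMSO to 39.47 to 45.25 CPM with AZD8330, most of the latter Klf4. All 8 microglia markers had group means under 1 CPM and none of 9 listed microglia genes was tested. Mesenchymal markers summed to 4.99 to 7.82 CPM and 20.1 to 21.5 CPM, most of it Acta2, smooth muscle actin, which rose from 3.99, 3.21 and 5.37 CPM to 17.1, 17.6 and 17.8 CPM. Endothelial markers summed to 5.76 to 6.43 CPM and Schwann or neural crest markers to 1.17 to 1.94 CPM with AZD8330. The part of other cell types in these changes was not tested.

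A further question was how hypoxia response genes, many of them HIF targets, changed with the drug in Vhl-edited cells. Of 29 tested hypoxia response genes outside glycolysis 19 rose and 1 fell, and of 19 glycolysis genes 8 rose and 1 fell (median log2 0.52 and 0.25). In control cells 12 of the same 29 rose and 10 fell, and 3 of the 19 rose and 7 fell. Whether HIF activity depends on MEK was not tested. Bnip3, a mitophagy receptor, held 620.4, 653 and 680.4 CPM with DMSO and 965, 968 and 908 CPM with AZD8330. Vegfa, the angiogenic growth factor, held 112, 100.3 and 95.6 CPM and 133, 139 and 184 CPM, and Higd1a, a mitochondrial HIF target, 565, 594 and 616 CPM and 841, 908 and 834 CPM. All 3 were higher in every AZD8330 library, with log2 changes of 0.54 ± 0.04 (adjusted p = 2.95e-07), 0.57 ± 0.12 (adjusted p = 0.00125) and 0.54 ± 0.05 (adjusted p = 4.38e-07). Ddit4, an inhibitor of mTORC1, rose from 256, 275 and 278 CPM to 568, 652 and 625 CPM and Egln3, a HIF prolyl hydroxylase, from 124, 125 and 114 CPM to 176, 172 and 166 CPM. Egln1, the main hydroxylase of HIF, was not called at 728, 762 and 765 CPM and 743, 770.5 and 746 CPM, nor was Mif (1060, 1116 and 1055 CPM, then 1128, 1129 and 1145 CPM).

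In glycolysis, Gapdh rose from 6929, 7255 and 7354 CPM to 8630, 8917 and 8578 CPM, the muscle-type phosphofructokinase Pfkm from 374, 373 and 372 CPM to 509, 518 and 481 CPM, and Gpi1 fell, from 2155, 2184 and 2172 CPM to 1977, 2043 and 1957 CPM. Slc2a1, the glucose transporter GLUT1, rose with a log2 change of 0.13 ± 0.03 (adjusted p = 0.00463), a call that is lost without AZD8330 library A (0.241) or B (0.191). Of 15 tested components of the HIF pathway itself 4 rose and 2 fell (median log2 0.02). Hif1a rose with a log2 change of 0.2 ± 0.04, from 264, 269.9 and 252 CPM to 304, 298 and 300.2 CPM, Vhl was not called (adjusted p = 0.0682), and Epas1 (HIF2-alpha) is listed at 0 in all 12 libraries. Ascl2 and Dlx3, transcription factors at under 1 CPM in every control library, held 7.9, 8.27 and 8.85 CPM and 18, 16.6 and 16.1 CPM with DMSO and 4.98, 7.28 and 5.84 CPM and 17.1, 19.8 and 18.5 CPM with AZD8330. Neither was called (adjusted p = 0.401 and 0.673). Of the 7 genes listed as high in Vhl-edited cells, Ascl2 and Dlx3 included, 3 rose and 0 fell. Among them Loxl2, a lysyl oxidase, rose with a log2 change of 0.97 ± 0.24 (adjusted p = 0.00559), but DESeq2 gave it an adjusted p of 0.471.

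**Figure D4:**
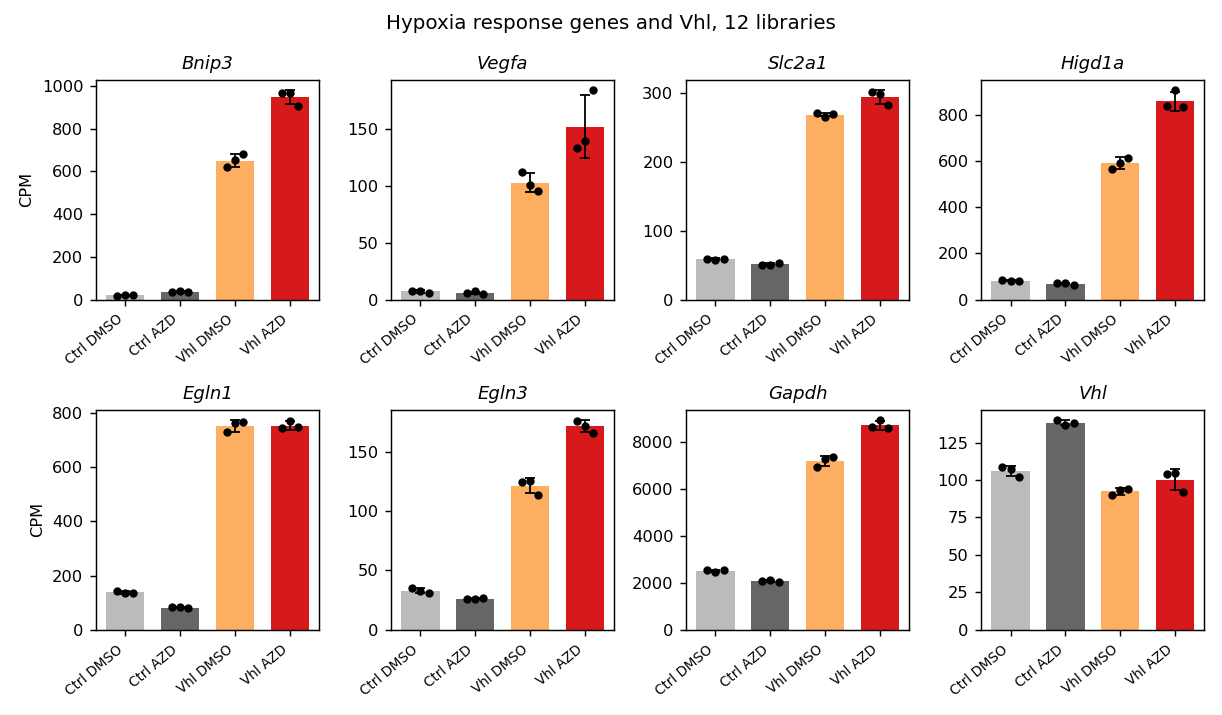
CPM (y axes, linear from 0, each with its own scale) of 7 hypoxia response genes and Vhl in 12 libraries, grouped as control (Ctrl) and Vhl-edited (Vhl) cells with DMSO or AZD8330 (AZD). Bars are means, whiskers SD over 3 libraries, points libraries. Each of the 7 hypoxia response genes lies higher in all Vhl-edited libraries than in any control library, and with AZD8330 Bnip3 averaged 947 CPM in Vhl-edited and 37.2 CPM in control cells.

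Set beside control cells, 1718 genes (12.8% of those tested) responded differently, tested as the Vhl-edited response minus the control response in 1 fit of the 12 libraries. The difference was positive for 1051 (7.81%) and negative for 667 (4.96%), and this split turned with the scaling: without TMM it was 681 against 873, and without Vhl-edited AZD8330 library A 484 against 920. Calls in 1 direction for single genes are therefore given only beside their size, and no difference called for a gene named here changed sign under any alternative. Among the lists, cholesterol synthesis and ribosome biogenesis each had 21 members with a called difference, all in 1 direction.

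Genes of sterol synthesis rose in Vhl-edited cells and fell in control cells. Of 24 tested, 14 rose and 3 fell in Vhl-edited cells (median log2 0.4), against 0 and 20 in control cells (median -0.79), and the difference was called for 21, all of them positive. Of the 3 that fell in Vhl-edited cells none is an enzyme of synthesis, and they include Srebf2 and Scap (log2 -0.14 and -0.13), which encode the sterol-responsive transcription factor and its escort. Both were named after their values were seen. Hmgcs1, the synthase that opens the pathway (chr13:119690379-119708260), held 1541, 1517 and 1425 CPM with DMSO and 2589, 2820 and 2601 CPM with AZD8330 in Vhl-edited cells, and 1743 ± 84.6 and 1469 ± 108 CPM (mean ± SD, n = 3) in control cells. Idi1, isopentenyl diphosphate isomerase, held 260.0, 258 and 247 CPM and 349, 368 and 335 CPM, but 354, 344 and 325 CPM and 141, 159.6 and 167 CPM in control cells. The Vhl-edited libraries thus went up without overlap and the control libraries down without overlap. The difference of the responses was 1.08 ± 0.08 for Hmgcs1 (adjusted p = 4.07e-06) and 1.59 ± 0.08 for Idi1 (adjusted p = 3.7e-07) on the log2 scale.

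Several later steps showed the same opposite directions. Lss, which makes lanosterol, rose from 214, 225 and 206 CPM to 285, 332 and 312 CPM in Vhl-edited cells and fell with a log2 change of -0.95 in control cells. Fdft1 (squalene synthase) and Mvd had log2 changes of 0.52 and 0.55, against -0.41 and -0.87. Dhcr7 and the sterol carrier Stard4 were not called in Vhl-edited cells (adjusted p = 0.177 and 0.174) and fell with log2 changes of -1.35 and -1.15 in control cells. In fatty acid synthesis 8 of 16 tested rose and 1 fell, and 7 differed from control cells, all positive (median log2 change in Vhl-edited cells 0.34). Scd2, the main stearoyl-CoA desaturase of these cells, rose from 5145, 5103 and 5032 CPM to 9582, 9658 and 9360 CPM. Scd1 rose from 522, 544 and 517 CPM to 1082, 1114 and 1041 CPM. Fasn, fatty acid synthase, was not called at 1040, 1013 and 984 CPM and 1023, 1026 and 1054 CPM, whereas in control cells it fell from 1378 ± 66.5 to 695 ± 23.2 CPM (difference 1.02 ± 0.05, adjusted p = 4.25e-07). Srebf1, which encodes a driver of these enzymes, was not called in Vhl-edited cells (log2 0.03, adjusted p = 0.432).

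MYC and ribosome biogenesis fell less in Vhl-edited than in control cells. Myc fell with a log2 change of -0.68 in Vhl-edited and of -1.49 in control cells, from 240.0 ± 1.1 to 85.2 ± 3.28 CPM (difference 0.81 ± 0.05, adjusted p = 1.47e-06). Of 31 ribosome biogenesis genes 21 had a called difference, all positive, with median log2 changes of -0.85 and -1.29. The repressor Mxd1 rose with a log2 change of 1.17 against 2.02. Some direct ERK outputs were also lowered less, among them Dusp6, Spry1, Etv4, Jun and Klf10. Positive differences were called for 2 of 8 DUSP, 1 of 5 Sprouty and Spred, 2 of 9 ETS and 3 of 18 immediate early genes. Over all tested genes the share was 7.81%. A positive difference is not always a smaller fall, since Etv1, 1 of the 2 ETS genes, rose in Vhl-edited cells. A negative difference was called for 1 DUSP and 1 immediate early gene. Dusp6 ended at 33.3, 30.5 and 34.7 CPM in Vhl-edited and 21, 20.5 and 21.3 CPM in control cells with AZD8330 (difference 0.76 ± 0.07, adjusted p = 2.74e-05), and the differences for Spry1, Etv4, Jun and Klf10 were 0.57, 0.59, 0.77 and 0.81. Dusp7 fell more in Vhl-edited cells (difference -0.25), and for Spry4 no difference was called (0.3, adjusted p = 0.121). Both depended on the fit. Without the filter on low counts the Dusp7 call was lost (adjusted p = 0.173) and Spry4 was called (0.32, adjusted p = 0.0363). The Dusp7 call was also lost with a replicate block within each cell type (adjusted p = 0.0597). Spry4 was also called without control AZD8330 library B (adjusted p = 0.0358). G2 and M phase genes went the other way, with 7 of 21 falling more in Vhl-edited cells, among them Mki67 (log2 -3.61 against -2.97, adjusted p of the difference = 0.00203), Top2a, Ccna2 and Cenpf. DESeq2 called 12 of the 21. Of 27 S phase genes only 3 had a called difference, all negative, and the medians were -2.35 in Vhl-edited and -2.23 in control cells.

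**Figure D5:**
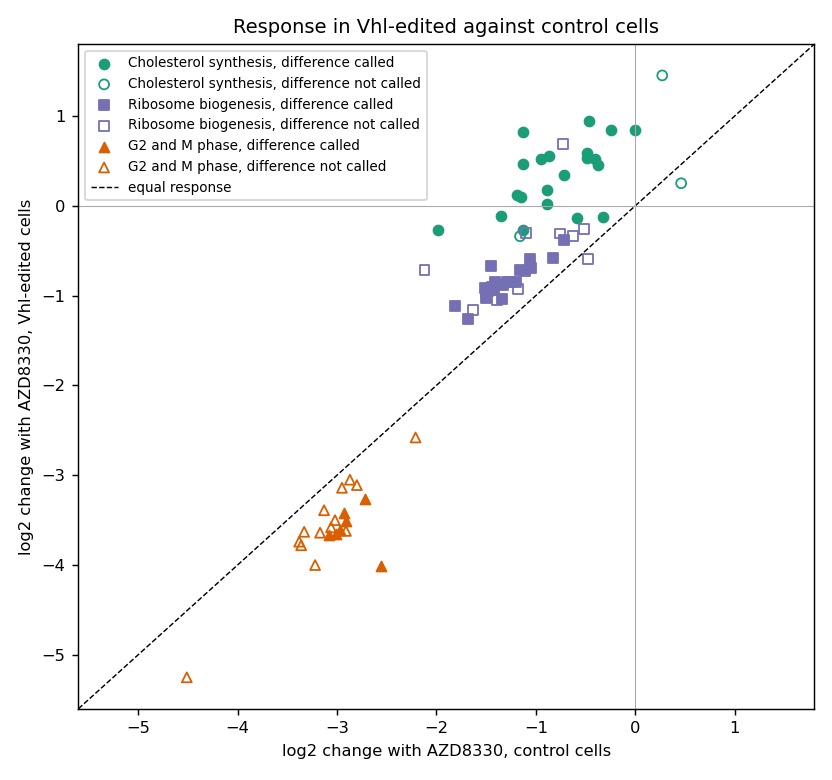
Log2 change with AZD8330 in control cells (x axis) against Vhl-edited cells (y axis) for tested genes of 3 lists; filled points have a called difference between the responses, and the dashed line marks equal responses. Sterol genes other than Ebp lie above the line and mostly above 0 on the y axis, ribosome biogenesis genes other than Polr1b above the line and mostly below 0 on the y axis, and all 21 G2 and M phase genes below the line, 7 of them with a called difference.

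Lineage and astrocyte genes with a called difference mostly had a smaller log2 change in Vhl-edited cells. Of 26 lineage factors 11 had a negative and 1 a positive difference, and of 19 astrocyte genes 6 and 0. Hes5 rose to 175, 167 and 174 CPM from 47.8, 46 and 50 CPM in Vhl-edited cells and to 143, 126 and 128 CPM from 14.9, 13 and 15.6 CPM in control cells, so that the DMSO levels differed more than the AZD8330 levels (difference -1.34 ± 0.1, adjusted p = 3.72e-06). For Gpr17 no difference was called (log2 -0.04 ± 0.06, SE, adjusted p = 0.727). Some hypoxia response genes that were not called in Vhl-edited cells fell in control cells: Egln1 went from 138 ± 4.8 to 81.9 ± 1.39 CPM there (difference 0.76 ± 0.05, adjusted p = 1.69e-06), and Mif and Fam162a had differences of 0.65 and 0.7. Of 29 such genes 11 had a positive and 3 a negative difference, the latter being Bnip3 (-0.37), Ddit4 (-0.7) and Narf.

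Among the genes with the largest differences, Trp53, the tumour suppressor p53, fell from 93.9, 109.8 and 92.6 CPM to 69.3, 60.2 and 64.4 CPM in Vhl-edited cells and from 67.7, 122 and 82 CPM to 10.5, 5.82 and 11.2 CPM in control cells (difference 2.69 ± 0.31, adjusted p = 0.000136). Its fall in Vhl-edited cells was lost without DMSO library B (adjusted p = 0.0681). Apln, the apelin ligand, held 159, 165 and 170.2 CPM and 98.3, 103 and 95.2 CPM, against 162, 159 and 164 CPM and 28.3, 28.7 and 22.6 CPM in control cells. Slc1a5, a glutamine transporter, rose from 9.42, 7.72 and 8.02 CPM to 19.3, 17.6 and 13.8 CPM and fell with a log2 change of -1.02 in control cells. Kif26a rose with a log2 change of 1.93 and was not called in control cells (log2 0.07). In the other direction, the ubiquitin ligase Fbxo32 rose from 7.5, 11.3 and 11.7 CPM to 35.4, 29.5 and 33.1 CPM in Vhl-edited and from 6.04, 6.23 and 6.37 CPM to 70.6, 72.4 and 70.8 CPM in control cells. Dll4, a Notch ligand, fell from 5.51, 6.01 and 7.03 CPM to 4.22, 3.61 and 4.23 CPM and rose with a log2 change of 1.02 in control cells. The difference of Wdr41 rests on single libraries. It is listed at 0.798, 0.683 and 40.3 CPM and 0.553, 0.984 and 0.146 CPM, and at 0.127, 0.268 and 0.787 CPM and 39.5, 0.262 and 0.431 CPM in control cells, so that 1 library in each of 2 groups carries its counts, and the call is lost without either (the Vhl-edited DMSO library C or the control AZD8330 library A). The Wdr41 call is also lost without any 1 control DMSO or Vhl-edited AZD8330 library, with limma and with a replicate block. Hk1, hexokinase 1, held 15.6, 20.8 and 43.1 CPM and 41.3, 54.3 and 50 CPM, against 0.509, 0.067 and 0.716 CPM and 4.07, 14.1 and 22.6 CPM in control cells, with a wide spread within groups, and its difference (-4.08) was lost without control DMSO library B. Sertm1, Zfp280c, Tars2 and H2-Q4 had positive differences (2.28, 2.02, 1.98 and 1.88) and Phyhd1, Myh11, Tmbim4 and Fndc5 negative ones (-2.02, -1.8, -1.75 and -1.69). Of these, Zfp280c lost its call in 8, Tars2 in 5, Phyhd1 in 3 and Myh11 in 9 of 12 fits that each left out 1 library. Of their transcript sequence, 38.4% (H2-Q4) and 43.5% (Phyhd1) of 31-base stretches also occur in other genes, and counts of these 2 are uncertain.

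Other signalling pathways known to act on OPCs were covered by 3 lists. Of Notch genes 13 of 21 tested rose and 3 fell (median log2 0.34). The receptors Notch1 and Notch3 rose from 394, 427 and 444 CPM to 744, 700.0 and 735 CPM and from 222, 234 and 216 CPM to 382, 390.2 and 387 CPM, and the ligand Dll3 from 45.4, 44.6 and 43.7 CPM to 94.4, 81.6 and 92.2 CPM. Of Wnt genes 5 of 16 rose and 7 fell (median log2 -0.32). Apcdd1, a Wnt inhibitor, rose from 26.2, 23 and 14.4 CPM to 305, 292 and 282 CPM, and the receptor Fzd1 fell with a log2 change of -0.7. Of ID and BMP genes 10 of 19 rose and 4 fell (median log2 0.46). Bmp7, a BMP ligand, fell from 213, 211 and 207 CPM to 89.9, 89.3 and 82.8 CPM, while the BMP antagonist Nbl1 rose with a log2 change of 1.37. Id2 rose with a log2 change of 0.46 and Id3 fell with a log2 change of -0.3.

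Of 31 lysosome and autophagy genes 20 rose and 2 fell (median log2 0.44). Ctsl, cathepsin L, rose from 58.4, 56.4 and 58.2 CPM to 148, 158 and 147 CPM. Of FOXO factors and targets 10 of 18 rose and 3 fell (median log2 0.51). Sesn3, a sestrin, rose from 411, 448 and 481 CPM to 1226, 1187 and 1177 CPM, Foxo3 with a log2 change of 0.67, and Irs2, the insulin receptor substrate, fell with a log2 change of -1.18. Of 13 Kruppel-like factors, Klf2 among them, 7 rose and 5 fell (median log2 0.62). Klf4 rose from 5.19, 4.17 and 5.52 CPM to 35.4, 34.2 and 38.8 CPM. Of the BCL2 family 5 of 10 rose and 2 fell (median log2 0.14). Bcl2l11, which encodes BIM, a death protein that ERK destabilizes, rose from 39.4, 37.4 and 43.1 CPM to 60.5, 59.7 and 60.4 CPM, less than in control cells (difference -0.98 ± 0.09, adjusted p = 2.04e-05). Bax fell with a log2 change of -0.67. Of p53 targets 5 of 20 rose and 12 fell (median log2 -0.52), with Btg2, an antiproliferative gene, at 86.2, 96 and 109 CPM and then 323, 319 and 307 CPM and the nuclease Aen at log2 -1.24.

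Stress response genes were mostly lower, 12 of 23 against 3 higher (median log2 -0.31). Hspa5, the chaperone BiP, fell from 942, 873 and 792 CPM to 464, 552 and 520.2 CPM, and Mthfd2, a mitochondrial folate enzyme, from 61, 54.2 and 53.5 CPM to 14.3, 14.9 and 14.2 CPM. Of interferon and antigen presentation genes 8 of 15 rose and 1, Tmem173, fell (median log2 0.45). Tapbp rose from 38.9, 40.9 and 38.3 CPM to 94.4, 99 and 94.1 CPM. Of 25 nuclear-encoded oxidative phosphorylation genes 18 fell and 1 rose, with a median log2 of -0.2. Of 13 mitochondrially encoded genes 9 fell and 0 rose (median log2 -0.27), for example mt-Nd1 from 3429, 3566 and 3680 CPM to 2423, 2560 and 2521 CPM.

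At the cell surface, ion channel and receptor genes of OPCs were divided, 6 of 20 higher and 9 lower (median log2 -0.21). Grm5, a metabotropic glutamate receptor, fell from 423, 426 and 422 CPM to 76.9, 93 and 89.8 CPM, and Kcnj10, the glial potassium channel Kir4.1, rose from 73, 79.4 and 84.1 CPM to 315, 307 and 295 CPM. Of matrix and proteolysis genes 13 of 25 rose and 6 fell (median log2 0.46). Tnc, tenascin C, fell from 718, 728 and 749.9 CPM to 238, 221 and 224 CPM, while Sparc rose from 145, 145 and 148 CPM to 390.2, 413 and 385 CPM and the laminin receptor subunit Itga7 from 20.9, 24.7 and 25.3 CPM to 97.8, 94.6 and 104 CPM. Of axon guidance and adhesion genes 14 of 24 rose and 5 fell (median log2 0.36). Ncam1 rose with a log2 change of 0.61 and Robo2 with 0.97, and the netrin receptor Unc5b fell with a log2 change of -1.3.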

How the data were processed

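RNA sequencing of 12 libraries was used, 3 for each of 4 groups; the 6 other libraries of the series are not analysed here. Per the submitters' processing notes the authors used Salmon 0.14.1 and mm10. The deposited table is named for another unit, but its values are estimated counts: they sum to a different total in each library and 58.8% of values above 0 are whole within 0.001. They were rounded to whole numbers. The 26 rows whose name had become a date stayed in, without being named. No 2 libraries were identical.

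Genes averaging 1 CPM or more across the 12 libraries were tested with edgeR 4.0.16 (quasi-likelihood, TMM, 1 fit of 4 groups) in R 4.3.3, with Benjamini-Hochberg adjustment over all 13460 genes and a threshold of 0.05. CPM values use TMM-scaled library totals, errors of log2 changes are SE, and a difference of responses is the Vhl-edited minus the control log2 change. Alternatives were DESeq2 1.42.0, limma 3.58.1 on log2(CPM + 1) or log2(CPM + 0.1), no TMM, no filter, the 6 libraries alone, a replicate block, and leaving out each library. The script was tested on simulated counts.

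Named genes were the 12 largest rises and falls among called genes reaching 10 CPM without overlap, up to 6 called and 4 not called members of each of 46 lists, the 8 largest differences each way, and a fixed set. Some items are not reported here. The comparison, members and lists were chosen with earlier results of these data known. Positions are from GENCODE on GRCm38, and 53395 of 54279 names matched it. Motifs were searched in RefSeq windows of 250 bases.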

Additional observations from a re-analysis of the deposited data

Results flagged for a closer look

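The response to AZD8330 differed between Vhl-edited and control cells for 1718 genes by the test of the difference itself (edgeR's quasi-likelihood test, Benjamini-Hochberg). These are 12.8% of the 13460 tested genes, 7.81% with a positive and 4.96% with a negative value. Of 82 genes whose difference was looked at for the text, 80 passed, 43 with a positive and 37 with a negative value. The 8 largest differences each way were picked among called ones, and members were chosen with earlier results known. The count of 80 is therefore no measure of how often responses differed. Each value below is the Vhl-edited minus the control log2 change, 3 libraries a group. The 2 comparisons use separate DMSO libraries of their own cell type.

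Among the transcription factors, ERK targets and G1 genes, Klf2, Dusp6, Etv4, Spry1, Klf10, Jun, Etv1, Ccnd1 and Cdkn1a had positive differences of 1.69, 0.76, 0.59, 0.57, 0.81, 0.77, 0.46, 0.28 and 0.41, so they fell less or rose more. The Etv1 call was lost without control AZD8330 library B (adjusted p = 0.0956) or C (0.104), or Vhl-edited AZD8330 library B (0.108) or C (0.0741). Those of the phosphatase Dusp7 and the receptors Erbb4 and Ntrk2 were -0.25, -0.66 and -0.32. The Dusp7 call was lost without the filter on low counts (adjusted p = 0.173) and with a replicate block within each cell type (0.0597). Myc and 4 genes of ribosome biogenesis fell less, with 0.81, 0.47, 0.42, 0.59 and 0.48 for Myc, Ddx21, Nop58, Fbl and Nolc1. The MYC antagonist and G1 kinase Mxd1 and Cdk6 had -0.85 and -0.77. A few genes of replication and mitosis fell more: Mcm5, Mki67, Top2a, Ccna2 and Cenpf had -0.44, -0.64, -0.49, -0.6 and -0.64. The lipid synthesis genes looked at had positive differences: for Hmgcs1, Fdft1, Lss, Idi1, Mvd, Stard4, Dhcr7, Scd1, Scd2, Fasn and Elovl6 these were 1.08, 0.93, 1.48, 1.59, 1.42, 1.24, 1.23, 0.82, 0.31, 1.02 and 0.86.

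The lineage and cell type genes looked at had negative ones, with -0.83, -0.44, -0.66, -1.34, -0.45, -0.52, -1.2, -0.59, -0.33, -0.63 and -0.88 for Tnr, Cnp, Id4, Hes5, Sox4, Sox3, Zfp488, Ndrg2, Gja1, Dcx and Id2. Of the hypoxia response Vegfa, Slc2a1, Higd1a, Egln3, Gapdh, Gpi1, Mif, Egln1 and Fam162a were positive at 0.82, 0.32, 0.77, 0.83, 0.55, 0.59, 0.65, 0.76 and 0.7. Negative values there were -0.27, -0.37, -0.7 and -0.53, for Vhl, Bnip3, Ddit4 and Narf. Not all of these calls were steady. That of Vegfa was lost without TMM (adjusted p = 0.0566) and with a shared replicate block (0.0658). It was also lost in several fits without 1 library, for example control AZD8330 library C (0.125). That of Vhl was lost without control DMSO library C (0.0537), among other fits. The largest positive differences were 2.69, 2.28, 2.04, 2.02, 1.98, 1.88, 1.86 and 1.86, for Trp53, Sertm1, Slc1a5, Zfp280c, Tars2, H2-Q4, Kif26a and Apln. The largest negative ones were -9.68, -4.08, -2.02, -1.84, -1.8, -1.75, -1.69 and -1.64, for Wdr41, Hk1, Phyhd1, Fbxo32, Myh11, Tmbim4, Fndc5 and Dll4. The remaining genes were Bcl2l11, Slc7a11, Tnc, mt-Nd1 and mt-Co1, at -0.98, -0.9, 1.04, -0.23 and -0.2. The value of Wdr41 comes from 2 libraries and is no estimate of a response.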

How the results depend on the processing

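The number of genes called in Vhl-edited cells lay between 6341 and 7082 over 14 alternatives, 6790 with DESeq2, 6935 without TMM, 7033 without the filter on low counts, 7082 and 6966 with limma on log2(CPM + 1) and log2(CPM + 0.1), 6595 in a fit to these 6 libraries alone, and 6341 to 6471 without 1 library. For control cells it lay between 7615 and 8398. The number of called differences lay between 1238 and 1813, 1238 to 1584 of them without 1 library. Every gene called both here and under an alternative kept its direction. The share of called differences that were positive was 61.2%, but 43.8% without TMM, 52.4% with DESeq2, and 34.5% to 40.5% without Vhl-edited AZD8330 library A, B or C or control AZD8330 library B or C. The share of called genes that rose in Vhl-edited cells was 50.2%, and 43.9% to 45.2% without any 1 of its AZD8330 libraries.

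Samples with the same letter did not deviate together: the correlations of their deviations from the group means were 0.03, 0.01 and 0.01 in Vhl-edited and -0.04, -0.03 and 0.02 in control cells, so the letters were not read as pairs. With the letter as a replicate block within each cell type 6627 genes were called in Vhl-edited cells, 7875 in control cells and 1300 differences, and with 1 block shared over both 6832, 8090 and 1552. Of 254 genes examined 235 kept their call under all 14 alternatives, and of 82 differences 69 under all 19. The rest changed sides of the threshold at least once, without a change of sign in a called value. In Vhl-edited cells Tmbim4 lost its call without DMSO library A or C or AZD8330 library A or B, and Phyhd1 without DMSO library A or B or AZD8330 library B or C. Map2k1 gained one without DMSO library C or any AZD8330 library, at log2 values of -0.1 to -0.14.

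In simulated counts for the Vhl comparison with 13460 genes, 67 genes were changed 1.5-fold, 67 2-fold and 66 4-fold, with the same spread for every gene. Of these changes 58.2%, 95.5% and 100% were called, so small changes without a call are not evidence of no change. In the data 51.4% of genes were called and the spread was fitted gene by gene. The simulated rates therefore do not give the power of this comparison.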
